A study of Mus musculus with 9 samples.

Results

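Cyclins and the kinases they activate were followed through 9 RNA sequencing libraries of mouse bile duct organoids. The 10 genes were those named Ccna2, Ccnb1, Ccnb2, Ccnd1, Ccnd2, Ccnd3, Ccne1, Ccne2, Cdk1 or Cdk2 in the deposited count tables. All 10 were among the 32137 genes listed, and all 10 passed the filter on low counts that left 17011 genes for testing. The members were chosen by name and not by a measured value, although results of these data were known when they were chosen.

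The organoids were grown from duct cells of a single male mouse of mixed genetic background, Axin2CreERT2+/-; R26-LSL-tdTom+/-. In this mouse a tamoxifen-activated Cre recombinase is expressed from Axin2, a target gene of Wnt signalling, and Cre switches on the red reporter tdTom. After 2 to 4 days of expansion, the organoids were kept for 11 days in differentiation medium. All groups received dexamethasone at 3 uM and 4-hydroxytamoxifen (4-OHT, which activates the Cre) at 500 nM in the last 24 h. R-spondin 1 (Rspo1), a secreted protein that strengthens Wnt signals, was present in that time at 100 ng/ml for the treated groups. Cells were then dissociated and sorted by tdTom. The untreated group holds tdTom-negative cells of organoids without Rspo1, the Rspo1-negative group tdTom-negative cells of treated organoids, and the Rspo1-positive group tdTom-positive cells of treated organoids. There was no group of tdTom-positive cells without Rspo1, so that treatment and reporter state cannot be told apart between the Rspo1-positive and untreated groups. Each group has 3 libraries, from passages 5, 6 and 10, and values are listed below in that order. The libraries come from repeated cultures of 1 animal. The Rspo1-positive and Rspo1-negative libraries of a passage are sorted parts of the same treated cultures. Between groups, p-values measure the spread between cultures of different passages.

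Cyclins are regulatory subunits that accumulate and are destroyed in each division cycle, and a cyclin-dependent kinase is active only when bound to one. D-type cyclins couple growth signals, Wnt signals among them, to entry into the cycle. E-type cyclins with Cdk2 start DNA replication, cyclin A2 acts through replication into mitosis, and B-type cyclins with Cdk1 drive mitosis. The adult bile duct epithelium divides rarely but proliferates after injury and in organoid culture.

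The genes lie apart in the mouse genome except for Cdk1 and Cdk2 on chromosome 10 and Ccnd1 and Ccne1 on chromosome 7 (GRCm38, GENCODE M21, whole gene spans). The D-type genes are Ccnd1 at chr7:144929931-144939925, Ccnd2 at chr6:127125162-127152193 and Ccnd3 at chr17:47505051-47599691. The E-type genes are Ccne1 at chr7:38097984-38107534 and Ccne2 at chr4:11191351-11204779. Ccna2 is at chr3:36564865-36572150, Ccnb1 at chr13:100778650-100786570 and Ccnb2 at chr9:70407692-70421547. The kinases are Cdk1 at chr10:69335146-69352938 and Cdk2 at chr10:128697939-128705031. Ccnd3 and Ccne2 lie on the plus strand and the other 8 on the minus strand.

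The promoters of Ccnb1, Ccnb2 and Cdk1 are shown first because these genes moved together in the data and because their upstream sequences share a layout. The RefSeq promoter table (build GRCm38.p6) matched 6 of the 10 genes: Ccnb1, Ccnb2, Ccnd3, Ccne1, Cdk1 and Cdk2. Ccna2, Ccnd1, Ccnd2 and Ccne2 were not matched. The 250 bases before each start were searched on both strands for CCAAT, for the CHR element (TTTGAA or TTCGAA), for E2F sites (TTTGGCGC, TTTCGCGC, TTTCCCGC or TTTGCCGC) and for TCF sites (CTTTGAT or CTTTGAA, the latter containing the CHR letters TTTGAA). Capitals below mark CCAAT or its reverse complement, and each sequence is written 5′ to 3′ on the gene's own strand.
Ccnb1: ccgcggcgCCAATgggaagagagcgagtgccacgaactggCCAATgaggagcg
Ccnb2: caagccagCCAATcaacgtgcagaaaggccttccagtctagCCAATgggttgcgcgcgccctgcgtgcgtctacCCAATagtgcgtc
Cdk1: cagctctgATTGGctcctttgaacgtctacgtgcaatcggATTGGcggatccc
The Ccnb1 stretch lies at chr13:100786541-100786593, the Ccnb2 stretch at chr9:70421563-70421649 and the Cdk1 stretch at chr10:69352948-69353000, all on the minus strand and upstream of the RefSeq start. The GENCODE M21 model of Ccnb1 begins inside its stretch, so part of it is transcribed in some Ccnb1 transcripts.

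Each of the 3 stretches holds CCAAT letters that start between 31 and 34 bases apart, and in Cdk1 they lie on the opposite strand. The Cdk1 promoter has a further CCAAT on that strand 208 bases before the start, outside the stretch shown and outside that spacing. That spacing was set after these promoters were seen, and 1.08% of the 32851 promoters in the table hold such a pair. At least 1 CCAAT is present in 33.8% of all promoters, 2 or more in 10.1%, a CHR element in 17.1%, an E2F site in 1.86% and a TCF site in 7.48%. The Ccnb2 promoter also held CHR letters 167 bases before the start. The Cdk1 promoter also held CHR letters 71 and 15 bases before the start, an E2F match (TTTCGCGC) and the TCF letters CTTTGAA, which are the same bases as the first CHR match. The Cdk2 promoter held 1 CCAAT and an E2F match (TTTCCCGC), 1 of the 2 Ccnd3 promoters held 1 CCAAT, and the Ccne1 promoter held none of these letters. Matches of letters are descriptions of the sequence only.

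The sequencing depth was between 23423979 and 37351448 counts per library, and 22021 to 24578 genes had a count. All 8 duct markers (among them Krt19, Epcam and Sox9) were above 1 CPM (count as a rate of the TMM-scaled library) in every library, with a summed level of 12900 to 15700 CPM in the untreated, 14200 to 17200 in the Rspo1-negative and 11700 to 11900 in the Rspo1-positive group. Krt19 was lower in Rspo1-positive than untreated cells (log2 -1.06, edgeR adjusted p = 0.0127) and Sox9 higher (1.31, adjusted p = 0.0412), and their part in the differences below was not tested. Markers of mesenchyme (at most 1.01 CPM in sum) and endothelium (at most 0.308) were near 0. Blood cell markers summed to between 45.5 and 68.1 CPM in any library, nearly all of it from Csf1r and Cd68. Ptprc and Cd3e were under 1 CPM in every library. Of 8 hepatocyte markers, 5 to 6 were under 1 CPM in each library, and their sum was 164 to 441, 268 to 545 and 204 to 312 CPM in the 3 groups. The 10 genes of the response to cell dissociation, such as Fos and Egr1, summed to 692 to 1230, 690 to 997 and 820 to 1920 CPM, the highest value being the Rspo1-positive library of passage 5. Between the treated groups 2 of the 10 were higher in Rspo1-positive cells, against 14.6% of all genes. They were Fos (log2 1.8, edgeR adjusted p = 0.0307) and Fosb (3.39, adjusted p = 0.018). Against untreated cells only Hspa1b was called, and it was lower (-1.01, adjusted p = 0.0382). The log2 fold change was positive for 7 of the 10 in each of these comparisons. The part of these genes in the differences below was not tested. The Rspo1-negative libraries also differed from both other groups along the GC content of the transcripts: across 17001 genes the rank correlation of the log2 fold change with GC was -0.504 for Rspo1-positive against Rspo1-negative, 0.496 for Rspo1-negative against untreated and -0.0134 for Rspo1-positive against untreated. Genes are not independent replicates, and these values are descriptions. They matter below for Ccne2 and Ccnd3, whose transcripts lie towards the ends of the GC range, but also for other members. Genes within 1 percentage point of the GC content of Ccnb1 had a median log2 fold change of 0.41 between the treated groups. This median was 0.27 for Ccna2, 0.22 for Ccnd2, 0.15 for Cdk1 and -0.28 for Ccnd3. It was 0.05 for Cdk2, 0.02 for Ccnb2, -0.08 for Ccnd1 and -0.19 for Ccne1. Between Rspo1-negative and untreated cells it was -0.38 for Ccnb1, -0.22 for Ccna2 and 0.23 for Ccnd3.

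**Figure D1:**
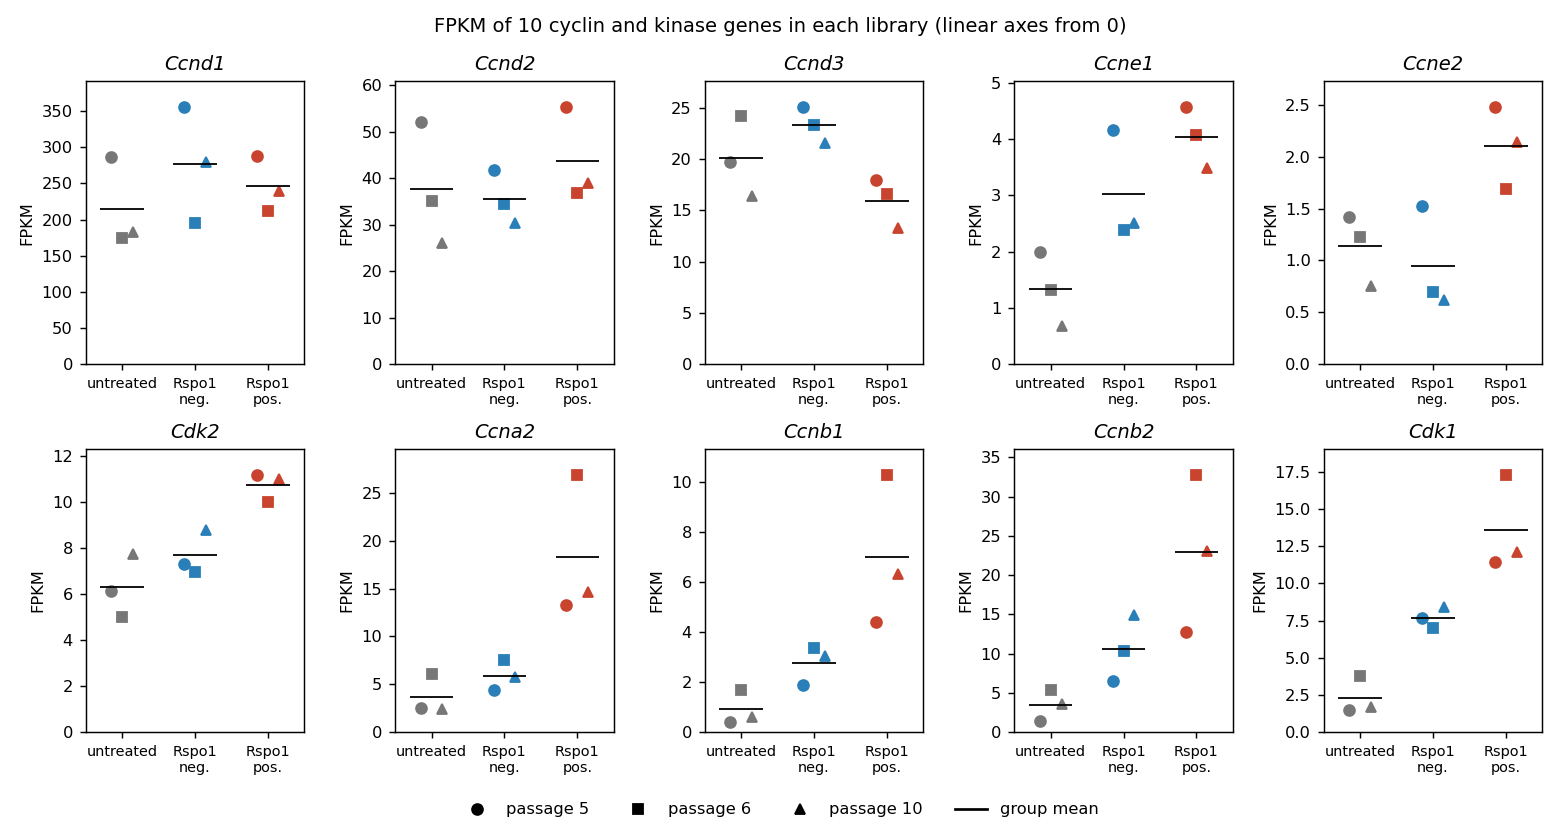
Deposited FPKM of each gene (vertical axes, linear from 0) in the 9 libraries by group, with 1 point per library, symbols for the passage and a line for the group mean of 3 libraries. In the lower row, Ccna2, Ccnb1, Ccnb2 and Cdk1 have Rspo1-positive means several times the untreated means and Cdk2 a smaller difference, while the points of Ccnd1 and Ccnd2 overlap between groups.

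The D-type cyclins were by far the most abundant of the 10 genes. On the FPKM scale (fragments scaled to transcript length and sequencing depth), Ccnd1, which encodes cyclin D1, stood at 214 ± 61.9 in untreated cells (SD, n = 3), Ccnd2 at 37.7 ± 13.3 and Ccnd3 at 20.1 ± 3.92. Cdk2 followed at 6.31 ± 1.38. The remaining genes were low in untreated cells, with Ccna2 at 3.66 ± 2.08, Ccnb2 at 3.47 ± 1.94, Cdk1 at 2.30 ± 1.26, Ccne1 at 1.33 ± 0.655, Ccne2 at 1.14 ± 0.346 and Ccnb1 at 0.906 ± 0.700 FPKM. The libraries of Ccnd1, Ccnd2, Ccnd3 and Cdk2 did not overlap in this order, whereas each gene below Cdk2 overlapped with its neighbour.

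In Rspo1-positive cells the upper end of the order was kept, with Ccnd1 at 246 ± 38.4 and Ccnd2 at 43.8 ± 10.1 FPKM. Ccnb2 came next at 22.9 ± 9.99, then Ccna2 at 18.3 ± 7.51, Ccnd3 at 15.9 ± 2.42 and Cdk1 at 13.6 ± 3.20. These 4 genes overlapped with one another over the 3 libraries. Cdk2 was at 10.7 ± 0.605, Ccnb1 at 7.00 ± 3.01, Ccne1 at 4.04 ± 0.551 and Ccne2 at 2.10 ± 0.394 FPKM.

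The Rspo1-negative group stood between the other groups for the mitotic genes. Its levels were 277 ± 81.0 for Ccnd1, 35.6 ± 5.78 for Ccnd2, 23.3 ± 1.76 for Ccnd3 and 10.6 ± 4.17 FPKM for Ccnb2. Cdk1 at 7.70 ± 0.688 and Cdk2 at 7.69 ± 0.974 FPKM were alike in level, followed by Ccna2 at 5.90 ± 1.57, Ccne1 at 3.02 ± 0.996, Ccnb1 at 2.77 ± 0.781 and Ccne2 at 0.944 ± 0.499.

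Setting Rspo1-positive beside untreated cells asks how cells that carry the Axin2 reporter under Rspo1 differ from cells of cultures without Rspo1 in the last 24 h. The test was edgeR's quasi-likelihood F-test on raw counts of all 9 libraries, with Benjamini-Hochberg adjustment over all 17011 genes. At an adjusted p under 0.05, 6 of the 10 genes were higher and none was lower (Ccna2, Ccnb1, Ccnb2, Ccne1, Cdk1 and Cdk2), against 5.21% of all genes called, 3.07% higher and 2.13% lower. The groups did not overlap for 7 of the 10 genes, those 6 and Ccne2, all higher in Rspo1-positive cells, against 23.2% of all genes (11.4% higher and 11.8% lower). The median log2 fold change of the 10 genes was 1.25, beside -0.01 over all genes. In bulk libraries, more cells in the cycle and more of each transcript per cell cannot be told apart.

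**Figure D2:**
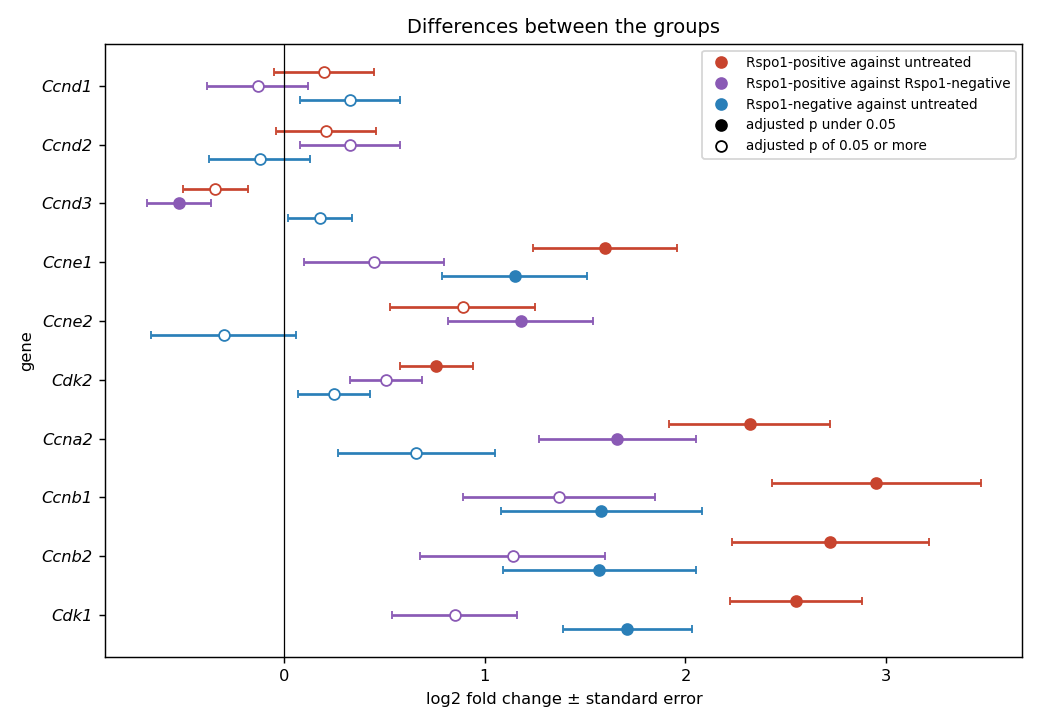
Log2 fold change (horizontal axis) of each gene in the 3 comparisons between groups, with bars of 1 standard error and filled points where the adjusted p is under 0.05. Ccnb1, Ccnb2, Cdk1 and Ccna2 have the largest differences between Rspo1-positive and untreated cells, 2.95, 2.72, 2.55 and 2.32, and the D-type cyclins lie near 0.

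Cdk1, the kinase that drives mitosis, had the smallest p-value of the 10 genes. It was at 1.48, 3.75 and 1.68 FPKM in the untreated libraries, at 7.66, 7.03 and 8.41 in the Rspo1-negative libraries and at 11.4, 17.3 and 12.1 in the Rspo1-positive libraries. The 3 groups did not overlap, and the untreated library of passage 6 was the highest of its group. The rise from untreated to Rspo1-positive cells was 5.87-fold (log2 fold change 2.55, SE 0.33, edgeR adjusted p = 0.00171), and it was positive in 3 of 3 passages, with log2 differences of 2.93, 2.17 and 2.85.

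Ccnb1, for cyclin B1, the partner of Cdk1 at the entry into mitosis, rose most. Its FPKM was 0.390, 1.70 and 0.625 in untreated, 1.89, 3.38 and 3.03 in Rspo1-negative and 4.4, 10.3 and 6.32 in Rspo1-positive libraries. All Rspo1-positive libraries were above all others, and the untreated library of passage 5 rested on 32 counts. The rise over untreated cells was 7.71-fold (log2 2.95, SE 0.52, edgeR adjusted p = 0.00815). The annotated copies Gm12856, Gm8416 and Ccnb1-ps match about 51.7% to 51.9% of the Ccnb1 transcript at 97% identity or more. Gm12856 had 0 counts in every library and Ccnb1-ps at most 3, and Gm8416 was not analysed here.

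Ccnb2, for cyclin B2, which is found at the Golgi apparatus, followed the same course. It was at 1.45, 5.32 and 3.64 FPKM in untreated, 6.55, 10.3 and 14.9 in Rspo1-negative and 12.8, 32.8 and 23.1 in Rspo1-positive libraries. The lowest Rspo1-positive library, from passage 5, was below the highest Rspo1-negative one, from passage 10, but above all untreated ones. Against untreated cells the rise was 6.57-fold (log2 2.72, SE 0.49, edgeR adjusted p = 0.00976).

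Ccna2, for cyclin A2, which binds both Cdk2 and Cdk1, was at 2.47, 6.06 and 2.44 FPKM in untreated, 4.39, 7.51 and 5.79 in Rspo1-negative and 13.3, 26.9 and 14.6 in Rspo1-positive libraries. All Rspo1-positive libraries were above all other libraries, and the untreated and Rspo1-negative groups overlapped. The rise over untreated cells was 4.98-fold (log2 2.32, SE 0.40, edgeR adjusted p = 0.00755). Ccna2 shares 510 exon bases (12.5% of its exon bases) with Exosc9 on the opposite strand, and the strand setting of the counting is not given in the sources used here. Exosc9 had a log2 fold change of 0.39 in this comparison, 0.85 between the treated groups and -0.46 between Rspo1-negative and untreated cells.

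The E-type cyclins, which activate Cdk2, were low and differed from each other. Ccne1 was at 1.99, 1.31 and 0.679 FPKM in untreated, 4.16, 2.38 and 2.5 in Rspo1-negative and 4.57, 4.07 and 3.48 in Rspo1-positive libraries. All libraries with Rspo1 were above all untreated ones. The rise from untreated to Rspo1-positive cells was 3.04-fold (log2 1.60, SE 0.36, edgeR adjusted p = 0.0283). It missed the threshold without any 1 Rspo1-positive library or the untreated library of passage 6, and with only the 6 libraries of the comparison (p up to 0.0966).

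Ccne2 was at 1.42, 1.23 and 0.753 FPKM in untreated, 1.52, 0.697 and 0.616 in Rspo1-negative and 2.48, 1.69 and 2.14 in Rspo1-positive libraries. Its Rspo1-positive libraries were above all others. Against untreated cells the log2 fold change was 0.89 (SE 0.36, edgeR adjusted p = 0.224), and with passage as a block it was 0.92 with an adjusted p of 0.0336, so that the call depends on pairing the libraries by passage. With that block 7 of the 10 genes were called higher and none lower, against 13.2% of all genes (6.44% higher and 6.77% lower). Ccne2 shares 609 exon bases (17.4%) with Ints8 on the opposite strand, which had a log2 fold change of -0.03 here.

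Cdk2, the kinase of the E-type cyclins and of cyclin A2, rose less than Cdk1. It was at 6.15, 5.02 and 7.76 FPKM in untreated, 7.31, 6.96 and 8.80 in Rspo1-negative and 11.2, 10 and 11.0 in Rspo1-positive libraries. The Rspo1-positive libraries lay close together and above all others. The rise over untreated cells was 1.70-fold (log2 0.76, SE 0.18, edgeR adjusted p = 0.0333). It missed the threshold without any 1 Rspo1-positive library, without the untreated library of passage 5 or 6, and with only the 6 libraries of the comparison (p up to 0.11).

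The D-type cyclins did not pass the test in this comparison. Ccnd1, a known Wnt target in several tissues, was at 286, 174 and 183 FPKM in untreated, 356, 195 and 280 in Rspo1-negative and 288, 212 and 239 in Rspo1-positive libraries. The groups overlapped, and passage 5 was the highest in each. The log2 fold change of Ccnd1 was 0.20 (SE 0.25, edgeR adjusted p = 0.784).

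Ccnd2 was at 52.1, 35.1 and 26.0 FPKM in untreated, 41.8, 34.5 and 30.4 in Rspo1-negative and 55.4, 36.8 and 39.1 in Rspo1-positive libraries, again with passage 5 highest. Its log2 fold change was 0.21 (SE 0.25, edgeR adjusted p = 0.759). Ccnd3 was at 19.7, 24.2 and 16.4 FPKM in untreated, 25.1, 23.3 and 21.6 in Rspo1-negative and 18.0, 16.6 and 13.3 in Rspo1-positive libraries, the last group being lower than the Rspo1-negative one throughout. Against untreated cells the Ccnd3 log2 fold change was -0.34 (SE 0.16, edgeR adjusted p = 0.316).

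The D-type cyclin genes share exon bases with neighbours on the opposite strand. Ccnd1 shares 1100 exon bases (23.4% of its exon bases) with LTO1, whose counts ran from 6736 to 17490 and whose log2 fold changes (0.15, -0.15 and 0.30 in the 3 comparisons) were close to those of Ccnd1 (0.20, -0.13 and 0.33). Ccnd2 shares 372 exon bases with the antisense gene Gm43126, which has 86.7% of its own exon bases in that overlap. Ccnd3 shares 361 bases (4.11%) with Bysl. Without the strand setting, reads of such pairs cannot be told apart.

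The comparison of the Rspo1-positive with the Rspo1-negative group sets cells of the same treated cultures side by side by reporter state. At an adjusted p under 0.05, 3 of the 10 genes were called: Ccna2 and Ccne2 higher and Ccnd3 lower in Rspo1-positive cells. Over all genes 24.3% were called, 14.6% higher and 9.78% lower, so the share of called members was near the background. The groups did not overlap for 6 genes, 5 higher and 1 lower, against 45.2% of all genes (24.6% higher and 20.6% lower). With passage as a block, which uses the pairing of the libraries, 7 of the 10 genes were called, 6 higher and 1 lower, against 38.9% of all genes (21.5% higher and 17.4% lower).

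Ccna2 was 3.16-fold higher in Rspo1-positive than Rspo1-negative cells (log2 1.66, SE 0.39, edgeR adjusted p = 0.0135), with differences of 1.66, 1.84 and 1.37 in the 3 passages. The adjusted p was above 0.05 (at most 0.0582) without the Rspo1-negative library of passage 5 or 10 or the Rspo1-positive library of passage 6. Ccnb1 had a log2 fold change of 1.37 (SE 0.48, edgeR adjusted p = 0.0618; blocked value 1.31, adjusted p = 0.00144), and Ccnb2 one of 1.14 (SE 0.46, adjusted p = 0.0975; blocked value 1.1, adjusted p = 0.00255). Cdk1 had 0.85 (SE 0.31, edgeR adjusted p = 0.0671; blocked value 0.79, adjusted p = 0.0168) and Cdk2 0.51 (SE 0.18, adjusted p = 0.0566; blocked value 0.52, adjusted p = 0.00872). These 4 genes were higher in Rspo1-positive cells in 3 of 3 passages. The blocked call of Cdk1 was lost when GC and length were added to the blocked fit (0.53, edgeR adjusted p = 0.116), while those of Ccnb1, Ccnb2 and Cdk2 were kept. Without the block, Ccnb1, Cdk1 and Cdk2 were called when the untreated library of passage 6 was left out (adjusted p = 0.0184, adjusted p = 0.0081 and adjusted p = 0.0346), Ccnb1 also without that of passage 5 (adjusted p = 0.0428) and Cdk2 without that of passage 10 (adjusted p = 0.0321).

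Ccne2 was 2.27-fold higher in Rspo1-positive than Rspo1-negative cells (log2 1.18, SE 0.36, edgeR adjusted p = 0.0378). Its transcript has a GC content of 36.3%, and only 0.894% of tested genes have as little. Over the 197 other tested genes within 1 percentage point of that GC content, the median log2 fold change was 0.93, in the same direction. With GC and length in the fit the Ccne2 value was 0.50 (adjusted p = 0.316), and with the block added 0.54 (adjusted p = 0.0878). Its overlapping neighbour Ints8 had a log2 fold change of 0.87. The Ccne2 call was also lost without any 1 Rspo1-positive library or without the Rspo1-negative library of passage 6 or 10.

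Ccnd3 fell by 0.52 on the log2 scale (0.698-fold, SE 0.16, edgeR adjusted p = 0.0399) and was lower in 3 of 3 passages. Its GC content, 56.7%, is at the 85.0th percentile, and the 1443 genes of like GC content had a median of -0.28. With GC and length in the fit the Ccnd3 value was -0.35 (adjusted p = 0.251). It also missed the threshold without any 1 library of either treated group and without the untreated library of passage 5. Ccne1 did not pass the test between the treated groups (log2 0.45, SE 0.35, edgeR adjusted p = 0.373), but was called higher with the block and GC and length together (0.72, adjusted p = 0.0357). Ccnd1 (-0.13, SE 0.25, edgeR adjusted p = 0.737) and Ccnd2 (0.33, SE 0.25, adjusted p = 0.357) did not pass either.

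The comparison of the Rspo1-negative with the untreated group asks how cells without the reporter differ with treatment. Ccnb1, Ccnb2, Ccne1 and Cdk1 were higher and no member was lower, 4 of 10 called, against 21.9% of all genes, 8% higher and 13.9% lower. The groups did not overlap for the same 4 genes, all higher, against 36.3% of all genes (16.4% higher and 20% lower). With upper-quartile scaling the calls over all genes were 2016 higher and 2054 lower in place of 1361 and 2363. Cdk1 rose 3.26-fold (log2 1.71, SE 0.32, edgeR adjusted p = 0.00523), and it kept its call in each of the 17 alternatives (adjusted p at most 0.0234). Ccnb1 rose 2.99-fold (log2 1.58, SE 0.50, adjusted p = 0.0464), Ccnb2 2.98-fold (1.57, SE 0.48, adjusted p = 0.0393) and Ccne1 2.22-fold (1.15, SE 0.36, adjusted p = 0.0428).

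Those last 3 calls stood close to the threshold. All 3 were lost with only the 6 libraries of the comparison (adjusted p 0.0693, 0.0528 and 0.0876) and with GC and length in the fit without the block (0.0581, 0.0923 and 0.160). Each was also lost on leaving out any of several single libraries, among them the untreated, the Rspo1-negative or the Rspo1-positive library of passage 10. With the block 5 genes were called, all higher, against 35.5% of all genes (15.5% higher and 20% lower). They were the 4 above and Ccna2, whose log2 fold change was 0.66 (SE 0.39, edgeR adjusted p = 0.254; blocked value 0.75, adjusted p = 0.00553). The increases were smallest in passage 6, where the untreated library was the highest of its group: the log2 differences of Cdk1 were 2.30, 0.88 and 2.30, those of Ccnb1 2.14, 0.96 and 2.22 and those of Ccnb2 2.08, 0.92 and 2.00.

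Among the remaining 5 genes of that comparison, Ccnd1 had a log2 fold change of 0.33 (SE 0.25), Ccnd2 of -0.12 (SE 0.25), Ccnd3 of 0.18 (SE 0.16), Ccne2 of -0.30 (SE 0.36) and Cdk2 of 0.25 (SE 0.18). None of these passed edgeR's test, with adjusted p from 0.345 to 0.763, and for Ccnd2, Ccnd3 and Ccne2 the sign changed with GC and length in the fit. The 3 comparisons between groups share libraries, and their values for a gene are set side by side without a test of one against another.

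The authors' deposited table for Rspo1-positive against untreated has 7 of the 10 genes at an adjusted p under 0.05, all higher, the 6 called here and Ccne2 (log2 fold change 0.92, adjusted p = 0.0183). The authors' deposited table for Rspo1-positive against Rspo1-negative has 8 such genes, 7 higher and 1 lower, with Ccnd2 among them (0.30, adjusted p = 0.0351). In the authors' deposited table for Rspo1-negative against untreated there are 5, all higher, with Ccna2 among them (0.77, adjusted p = 0.00757). The share of all 15807 genes of the authors' comparisons under that threshold is not given here. These counts of members are therefore not set against a background.

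**Figure D3:**
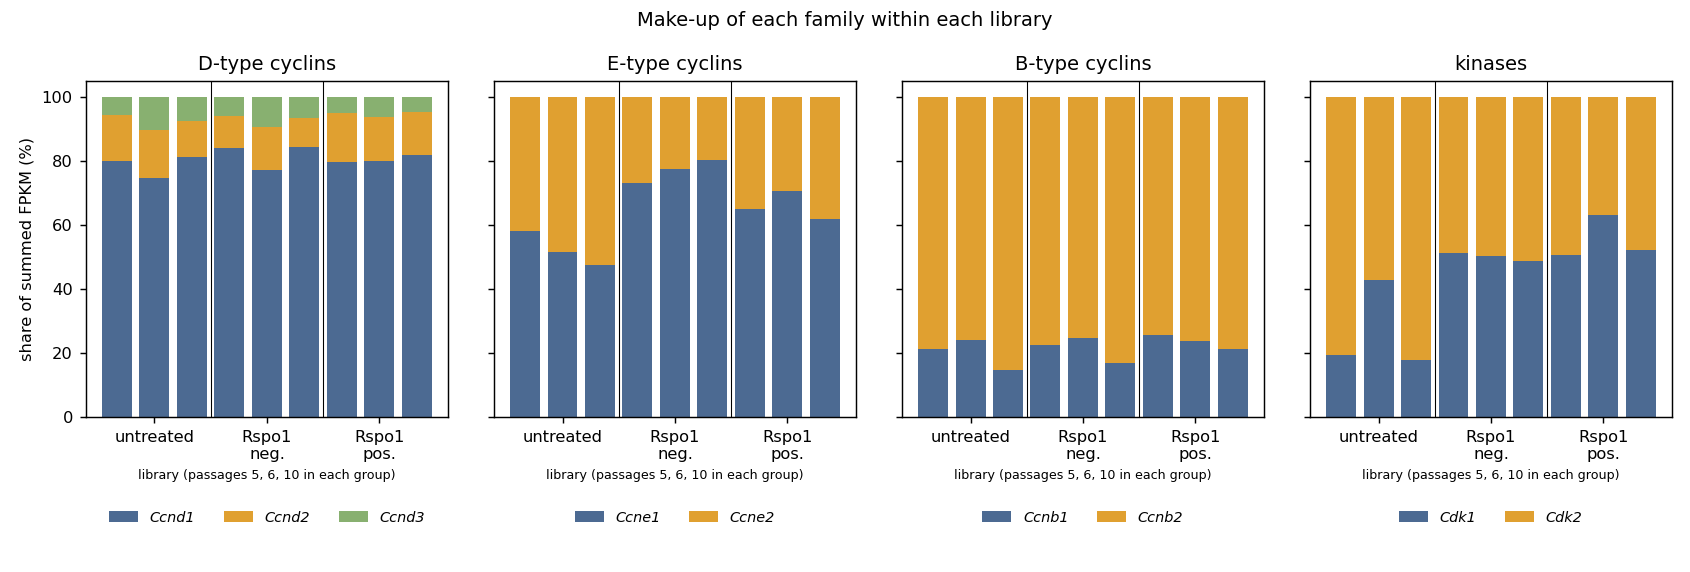
Share of each gene in the summed FPKM of its family (vertical axis, percent, from 0) in the 9 libraries, 1 bar per library in the order of passages 5, 6 and 10 within each group. Ccnd1 makes up 74.6% to 84.3% of the D-type sum in every library, while the share of Cdk1 in the kinase pair is 17.8% to 42.8% in untreated and 48.9% to 63.2% in the other libraries.

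The make-up of the families was compared within libraries, as shares of summed FPKM, given as descriptions with no test. Ccnd1 made up 78.6% ± 3.50 of the D-type cyclins in untreated, 81.9% ± 4.15 in Rspo1-negative and 80.5% ± 1.30 in Rspo1-positive cells (SD, n = 3). Ccnd3 made up 7.71% ± 2.46, 7.23% ± 1.77 and 5.25% ± 0.883. The ranges of the 3 groups overlapped for Ccnd1, and the D-type mixture was dominated by Ccnd1 in every library.

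Cdk1 made up 26.7% ± 14.0 of the summed FPKM of Cdk1 and Cdk2 in untreated, 50.1% ± 1.15 in Rspo1-negative and 55.3% ± 6.85 in Rspo1-positive cells. Untreated libraries were at 19.4%, 42.8% and 17.8%, all below the other 6. Ccne1 made up 52.4% ± 5.48 of the E-type sum in untreated, 77.0% ± 3.50 in Rspo1-negative and 65.8% ± 4.46 in Rspo1-positive cells, and the 3 groups did not overlap. The genes of like GC content to Ccne2 had a median of -0.92 between Rspo1-negative and untreated cells, and their part in the E-type share was not tested. Ccnb2 made up 80.0% ± 4.90, 78.6% ± 4.05 and 76.4% ± 2.09 of the B-type sum, with overlapping groups.

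Passage was compared with group held in the model, 3 libraries a passage. Each passage occurs once and its libraries are the different groups, so these p-values measure how passage differences vary between groups. They do not measure the spread between cultures of a passage. Passage cannot be told apart from the round of culture. From passage 5 to passage 6, Ccna2, Ccnb1 and Ccnb2 rose and Ccnd1 fell, 4 of 10 genes against 2.49% of all genes called, 1.16% higher and 1.33% lower. The passages did not overlap for Ccnd1 and Ccnd2, both lower at passage 6, against 8.83% of all genes (4.54% higher and 4.29% lower). Ccna2 rose 2.07-fold (log2 1.05, SE 0.16, edgeR adjusted p = 0.00765), with differences of 1.30, 0.82 and 1 in the untreated, Rspo1-negative and Rspo1-positive groups. Ccnb1 rose 2.57-fold (1.36, SE 0.23, adjusted p = 0.0128) and Ccnb2 2.46-fold (1.30, SE 0.22, adjusted p = 0.0117), each positive in 3 of 3 groups. Ccnd1 fell by 0.66 on the log2 scale (SE 0.15, edgeR adjusted p = 0.0464), with differences of -0.71, -0.82 and -0.45. The fits without the untreated or the Rspo1-negative library of passage 5 called 0 members, and those without the Rspo1-positive library of passage 5 or 6 called only Ccna2. The Ccnd1 call was also lost without the Rspo1-negative library of passage 6 or 10 or the Rspo1-positive library of passage 10, and over all such fits its adjusted p reached 0.303.

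Cdk1 went with these genes only in part between passages 5 and 6. Its log2 differences were 1.34 in untreated, -0.07 in Rspo1-negative and 0.58 in Rspo1-positive cells (fitted 0.63, SE 0.23, edgeR adjusted p = 0.201). Ccnd2 had a fitted change of -0.47 (SE 0.15, adjusted p = 0.141), and the E-type cyclins -0.51 (Ccne1, SE 0.23, adjusted p = 0.321) and -0.60 (Ccne2, SE 0.25, adjusted p = 0.279).

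**Figure D4:**
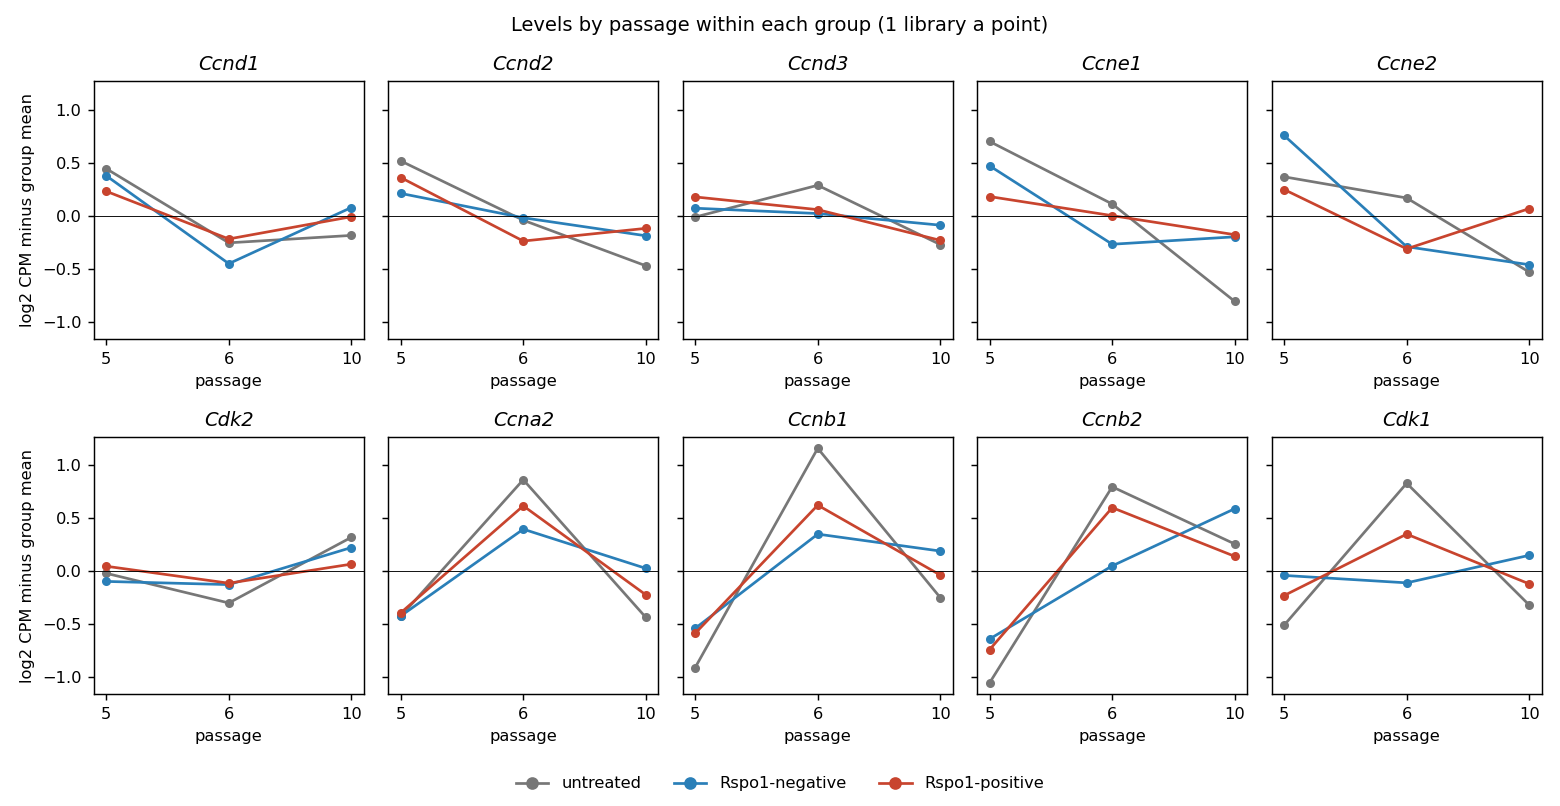
Log2 CPM of each gene minus the mean of its group (vertical axis) at passages 5, 6 and 10 (horizontal axis, not to scale), 1 line per group and 1 library per point. Ccna2 and Ccnb1 peak at passage 6 in all 3 groups, while Ccnd1, Ccnd2 and Ccne1 are highest at passage 5.

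From passage 5 to passage 10, Ccnb2 was called higher and Ccnd2 lower, 2 of 10 genes against 9.07% of all genes (4.57% higher and 4.5% lower). Ccnd1 and Ccnd2 did not overlap between these passages, both lower at passage 10, against 16.7% of all genes (9.55% higher and 7.19% lower). Ccnb2 rose 2.19-fold (log2 1.13, SE 0.22, edgeR adjusted p = 0.0102), with differences of 1.31, 1.23 and 0.88 in the untreated, Rspo1-negative and Rspo1-positive groups. Ccnd2 fell by 0.62 on the log2 scale (SE 0.15, edgeR adjusted p = 0.0268), with differences of -1, -0.40 and -0.47. The Ccnd2 call was lost without any 1 library of passage 5 or 10, and the Ccnb2 call without the untreated library of passage 5 or the Rspo1-negative library of passage 5 or 10. Ccne1 had a log2 fold change of -0.81 (SE 0.23, edgeR adjusted p = 0.0522) and was called lower with either other scaling of the libraries (adjusted p = 0.0448 and 0.0490).

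From passage 6 to passage 10, Ccna2 fell by 0.84 on the log2 scale (SE 0.16, edgeR adjusted p = 0.0106), the only 1 of 10 genes called, against 8.45% of all genes (4.4% higher and 4.05% lower). The libraries of the 2 passages overlapped for all 10 genes, whereas they did not for 14.5% of all genes (8% higher and 6.47% lower). Its differences were -1.30, -0.37 and -0.84 in the 3 groups, and its call was lost without the untreated or the Rspo1-positive library of passage 10. Ccnb1 had a log2 fold change of -0.73 (SE 0.23, edgeR adjusted p = 0.0750). Of the 10 dissociation response genes, 5 were called lower at passage 6 than at passage 5, against 1.33% of all genes. At passage 10, 5 were called lower than at passage 5, against 4.5% of all genes, with none higher in either comparison. Egr1 and Dusp1, 2 of the 10, were called higher at passage 10 than at passage 6, against 4.4% of all genes. The part of the dissociation response genes in the differences between passages was not tested.

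The other genes that control cyclins and their kinases were taken from lists of named genes. Among the CDK inhibitors, which bind and block the kinases, 2 of 8 were higher in Rspo1-positive than untreated cells (Cdkn2c, log2 1.71, SE 0.40, and Cdkn3, 2.46, SE 0.50) and 1 was lower (Cdkn2b, -0.55, SE 0.13), with a median of -0.05 beside -0.01 over all genes. Of all genes, 3.07% were called higher and 2.13% lower. Cdkn3 encodes a phosphatase that acts on Cdk1 and Cdk2, and its edgeR adjusted p was 0.0181. Cdkn1a (p21, induced by p53) had a log2 fold change of -0.46 (SE 0.56, edgeR adjusted p = 0.771). Between the treated groups 1 of the 8 was called, against 24.3% of all genes. This was Cdkn1c (p57), which was lower in Rspo1-positive cells (log2 -1.34, SE 0.30, edgeR adjusted p = 0.0113). With the block Cdkn2c and Cdkn3 were called higher and Cdkn1a and Cdkn1c lower, against 21.5% and 17.4% of all genes. With GC and length in the fit no inhibitor was called there. With the block added to that fit, Cdkn2c was higher and Cdkn1b and Cdkn1c lower. Of all genes, 1636 were then called higher and 2364 lower.

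Between the Rspo1-negative and untreated groups, Cdkn1c (log2 0.94, SE 0.30) and Cdkn3 (1.62, SE 0.50) were called higher and Cdkn1b (p27) lower (-0.49, SE 0.12), with a median of 0.30 over the 8 inhibitors beside -0.02 over all genes. With GC and length in the fit none of these 3 was called and Cdkn2b was called lower. On group alone, 8% of all genes were called higher and 13.9% lower in this comparison. Across passages Cdkn1a was the inhibitor that moved most clearly. It was at 132, 73.5 and 27.7 FPKM in untreated, 121, 76.9 and 38.7 in Rspo1-negative and 85.8, 58.2 and 26.7 in Rspo1-positive libraries, lower at each later passage in every group, and it was called lower in all 3 passage comparisons.

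Among the 12 genes for cyclin destruction and CDK accessory proteins, 7 were higher and 1 lower in Rspo1-positive than untreated cells. The median was 0.96, and of all genes 3.07% were called higher and 2.13% lower. Cdc20 (log2 2.89, SE 0.51, edgeR adjusted p = 0.00826) activates the ubiquitin ligase that destroys B-type cyclins, and Ube2c (3.05, SE 0.57, adjusted p = 0.0112) is a ubiquitin-conjugating enzyme of that ligase. Fbxo5 (1.88, SE 0.23, adjusted p = 0.00145) inhibits the same ligase. Skp2, Cks1b, Cks2 and Ube2s were also higher, and Fbxo31, which directs cyclin D1 to destruction, was lower (-0.92, SE 0.23, adjusted p = 0.0452).

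Between the treated groups 5 genes of that list were higher (Fbxo5, Cdc27, Skp2, Fbxw7 and Cks2) and Fbxo31 was lower (log2 -0.97, SE 0.23, edgeR adjusted p = 0.0141), with a median of 0.90 beside 0.03 over all genes. Of all genes, 14.6% were called higher and 9.78% lower. With GC and length in the fit the only call was Fbxo5, and with the block added 6 were higher and 1 lower. That last fit called 1636 of all genes higher and 2364 lower. Between Rspo1-negative and untreated cells Cdc20, Ube2s and Cks1b were higher and Cdc27 and Fbxw7 lower, with a median of 0.17 beside -0.02 over all genes. Over all genes 21.9% were called in this comparison, 8% higher and 13.9% lower. With GC and length in the fit the only call was Ube2s. With the block added 6 were higher, among them Cdc20, Ube2s and Cks1b, and Cdc27 was lower. That fit called 1759 of all genes higher and 1791 lower.

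Further lists held the enzymes that switch the kinases on or off and the pocket proteins that the kinases inactivate. Of 8 activating and inhibitory enzymes, 2 Cdk1-activating phosphatases were higher in Rspo1-positive than untreated cells, with a list median of 0.26. They were Cdc25b (log2 0.89, SE 0.22, edgeR adjusted p = 0.0401) and Cdc25c (2.75, SE 0.64, adjusted p = 0.0339). Of all genes, 3.07% were called higher and 2.13% lower. With the block 4 of the 8 were called higher (also Wee1 and Pkmyt1) and 0 lower, against 6.44% and 6.77% of all genes. No gene of that list passed edgeR's test on group alone in the Rspo1-positive against Rspo1-negative or the Rspo1-negative against untreated comparison, with medians of 0.36 and 0.06. Of all genes, 24.3% and 21.9% were called in these 2 comparisons. With GC and length in the fit, Mnat1 was called lower in the first and higher in the second. At an unadjusted p under 0.05 edgeR had 4 higher against Rspo1-negative cells and 1 lower between Rspo1-negative and untreated cells, and DESeq2 called 2 and 0. With the block Cdc25b and Cdc25c were called higher in both of those comparisons, and Wee1 and Ccnh only in the first of them. The block called 21.5% of all genes higher between the treated groups and 15.5% between Rspo1-negative and untreated cells.

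Of the 3 pocket proteins, Rbl1 (p107) was the one that differed in Rspo1-positive cells from both other groups. It was at 1.44, 1.48 and 1.31 FPKM in untreated, 1.92, 1.43 and 1.54 in Rspo1-negative and 4.55, 4.35 and 4.61 in Rspo1-positive libraries. The last group stood far above the others in each passage, with a log2 fold change of 1.67 against untreated (SE 0.16, edgeR adjusted p = 0.000687) and 1.5 against Rspo1-negative cells (SE 0.16, adjusted p = 0.00170). Rb1 had -0.03 against untreated and was higher against Rspo1-negative cells (0.91, SE 0.18, edgeR adjusted p = 0.00653), a call that was lost with GC and length in the fit. Between Rspo1-negative and untreated cells Rb1 was called lower (-0.94, SE 0.18, adjusted p = 0.00557) and Rbl1 was not called. With GC and length in the fit, with or without the block, Rbl1 was called higher there and Rb1 was not called.

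Of 12 other cell cycle cyclins and kinases, 10 were tested, and Ccna1 (log2 2.77, SE 0.55, edgeR adjusted p = 0.0161) and Ccnf (2.25, SE 0.42, adjusted p = 0.0114) were higher in Rspo1-positive than untreated cells, with a median of 0.10. Of all genes, 3.07% were called higher and 2.13% lower. Ccna1, the germ line cyclin A, was scarce, with 2 to 10 counts in untreated and 33 to 43 in Rspo1-positive libraries. Of the kinases of the D-type cyclins, Cdk4 had 0.19 (SE 0.15) and Cdk6 0.12 (SE 0.19) in that comparison, neither called. Cdk6 was called higher in Rspo1-positive than Rspo1-negative cells (0.91, SE 0.19, adjusted p = 0.00922) and lower in Rspo1-negative than untreated cells (-0.79, SE 0.19, adjusted p = 0.0169), and Cdk4 was called higher in that last comparison (0.49, SE 0.15, adjusted p = 0.0423). None of these 3 calls was kept with GC and length in the fit.

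The cyclins and kinases of transcription, which bind RNA polymerase II or Mediator and do not drive the cycle, served as a contrast by function. None of the 12 was called between Rspo1-positive and untreated cells with edgeR, with or without the block, nor with DESeq2, and 0 had an unadjusted p under 0.05, with log2 fold changes from -0.06 to 0.26 and a median of 0.14. Of all genes, 5.21% were called there. Between the treated groups 7 were higher in Rspo1-positive cells and 0 lower, against 14.6% and 9.78% of all genes, with a median of 0.70. In Rspo1-negative against untreated cells 6 were lower and 0 higher, against 13.9% and 8% of all genes, with a median of -0.71. With GC and length in the fit 0 of 12 were called in either, with medians of 0.12 and -0.14. With the block added to that fit, Ccnk and Cdk12 were called higher between the treated groups, and 0 of 12 were called between Rspo1-negative and untreated cells. Between the treated groups that fit called 1636 of all genes higher and 2364 lower.

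The profiles of the 10 genes over the 9 libraries were compared as root mean square differences of log2 CPM, each gene centred on its mean. Ccnb1 and Ccnb2 differed by 0.31, Ccnb1 and Cdk1 by 0.39, Ccnb2 and Cdk1 by 0.44 and Ccna2 and Ccnb1 by 0.48. Ccnd1 and Ccnd2 differed by 0.30, and Ccne1 and Ccne2 by 0.69. The E-type cyclins were thus less alike than either of the other pairs of one family, and Cdk1 and Cdk2 were farther apart still at 0.96.

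Over all tested genes with a mean log2 CPM above 2, the profile nearest to Ccnb1 was that of Ube2c (0.12, median over 11660 genes 1.45), followed by Plk1 and Tpx2 (both 0.15). The nearest to Cdk1 were Melk (0.20), Kifc1 and Cdca5 (both 0.24). The nearest to Ccna2 were Kif4 (0.17), Ect2 (0.21) and Ckap2 (0.22). The nearest to Ccne1 were Mcm3 (0.20), a subunit of the replicative helicase, Ung (0.21) and Dut (0.23). For Ccnd1 it was LTO1 (0.04), the neighbour that shares its exon bases, then Gm45213 on the same chromosome (0.11) and Cnn3 (0.14). These are descriptions over 9 libraries that share their groups and passages.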

How the data were processed

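RNA of sorted organoid cells was sequenced as single-end 75 bp reads from 100 ng of total RNA, per the labels' protocols. The submitters' processing notes name Trimmomatic 0.35, FastQC 0.11.2, STAR 2.5.1b, featureCounts, DESeq2 and the build GRCm38; the annotation and strand setting are not given in the sources used here. Per the file headers, each deposited file holds raw counts and FPKM per gene. The authors' deposited comparison tables hold a mean normalized signal, log2 fold changes with standard errors, a test score, p-values and adjusted p-values. FPKM entered no test.

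Raw counts were fitted with edgeR 4.0.16 in R 4.3.3 (TMM scaling, filterByExpr with minimum count 10 and minimum total 15, quasi-likelihood F-test, Benjamini-Hochberg threshold 0.05 over 17011 genes), all 9 libraries in 1 fit on group, and on group and passage for the passage comparisons. CPM uses TMM-scaled library sizes, and log2 CPM a prior count of 2. Alternatives were the replicate block, RLE and upper-quartile scaling, DESeq2 1.42.0, no filter, only the 6 libraries compared, a GC and length offset (splines with 5 degrees of freedom) and leaving out each library. On simulated counts edgeR's share of false calls stayed near the nominal rate, and DESeq2's was above it. The simulation had a single dispersion and no passage effect or GC trend, so it does not give these rates for the present libraries. Overlaps and copies came from GENCODE M21 (Python 3.11.15, BLAST 2.17.0) and promoters from RefSeq.

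Same-numbered libraries share a passage, per the labels. After removal of group means their log2 CPM correlated at 0.123 to 0.573 (9 pairs), against -0.476 to 0.0826 for 18 pairs of different passages, so the numbers pair the libraries. The libraries of a group differed beyond sampling noise (chi-square per gene 54.4 to 518). The depth of 23423979 to 37351448 counts limits precision only for genes with few counts. Named genes are the 10 members and the genes of 6 lists of cell cycle and transcriptional regulators, with 6 marker lists; for likeness, the 3 nearest genes of at most 5 members. The members and lists were chosen with earlier results of these data known.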

Additional observations from a re-analysis of the deposited data

How the results depend on the processing

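The libraries pair by passage, and with the replicate block 7 members in place of 6 were called between Rspo1-positive and untreated cells, 7 in place of 3 between Rspo1-positive and Rspo1-negative cells and 5 in place of 4 between Rspo1-negative and untreated cells; the calls so changed are named above, and the block changed no other call of a member. Over all genes the block called 2247, 6624 and 6039 in place of 886, 4141 and 3724. Between the treated groups the members called were also 7 with DESeq2, 6 with no filter, 7 with only the 6 libraries, 1 with the GC and length offset and 5 with the block and that offset. Over all genes these settings called 5116, 4273, 4654, 1437 and 4000 (main 4141). Between Rspo1-negative and untreated cells they were 1 with only the 6 libraries and 1 with the offset. DESeq2 called 5 members from passage 5 to 10 (main 2) and 2 from passage 6 to 10 (main 1), and the fit with no filter 5 and 3. Over all genes DESeq2 called 1506 and the fit with no filter 1446 for Rspo1-positive against untreated (main 886), the block with the offset called 2750 there, the offset alone called 1437 and 1342 in the other 2 group comparisons, and the 6 libraries alone 2299 for Rspo1-negative against untreated. With no filter the passage counts were 2784, 1193 and 2456 for passages 10 against 5, 6 against 5 and 10 against 6 (main 1543, 423 and 1438), and DESeq2 called 2151, 851 and 1872 in the same order. Over the 9 fits that leave out 1 library, the members called ranged from 4 to 6, 0 to 6 and 1 to 4 in the 3 group comparisons and from 0 to 6, 0 to 4 and 0 to 3 in those passage comparisons. Over all genes the calls ranged from 390 to 899, 2061 to 4555 and 1800 to 3772 between groups. Between passages they ranged from 405 to 3594, 105 to 846 and 548 to 1460. Between the treated groups 0 members were left without the Rspo1-positive library of passage 6 or the Rspo1-negative library of passage 10, and 6 were called without the untreated library of passage 6. From passage 5 to 10, 6 were called without the untreated library of passage 6.

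Signs turned only for log2 fold changes that were called in neither fit, and the cause was not tested. With the GC and length offset, without and with the block, Ccnd2 had -0.16 and -0.16 between the treated groups, and between Rspo1-negative and untreated cells Ccnd2 had 0.28 and 0.32, Ccnd3 -0.02 and -0.01 and Ccne2 0.38 and 0.36. Leaving out 1 library, Ccnd1 ranged from -0.35 to 0.07 between the treated groups and Ccnd2 from -0.33 to 0.18 between Rspo1-negative and untreated cells. From passage 5 to 10 Ccna2 ranged from -0.01 to 0.37 and Cdk1 from -0.08 to 0.33, from passage 5 to 6 Ccnd3 from -0.09 to 0.12, and from passage 6 to 10 Ccnb2 from -0.52 to 0.04 and Ccne2 from -0.49 to 0.14. The rises of Cdk1, Ccna2, Ccnb1 and Ccnb2 from untreated to Rspo1-positive cells kept their calls in all 17 alternatives. The shares of Ccnd1 and Ccnd2 among D-type cyclins moved by more than 1 SD with raw counts in place of FPKM (Ccnd1 71.6%, 76% and 73.2%), and that of Ccnd3 by less (7.24%, 6.9% and 4.93%).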
